A study of Mus musculus with 12 samples.

Results

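The ErbB family comprises 4 receptor tyrosine kinases, Egfr, Erbb2, Erbb3 and Erbb4, and a set of growth factors that activate them. The mRNAs of these 4 receptors and of 6 ligands (Nrg1, Hbegf, Tgfa, Areg, Ereg and Btc) were followed in cultured mouse oligodendrocytes (OLs) after knockdown of the transcription factor Egr2. The 10 genes were taken by symbol as the core of the family from 56860 named genes in the count table. All 10 were in the table, and 7 of them passed the filter on low counts. Areg, Ereg and Btc did not pass and are given as counts.

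OLs were grown from the cortex of 6- to 7-day-old C57BL/6J pups, enriched with beads against the surface antigen O4, expanded with PDGF-AA and differentiated with insulin, triiodothyronine and ciliary neurotrophic factor, so that no ErbB ligand was among the listed additions to the medium. The labels name the medial prefrontal cortex as the tissue. The siEgr2 group (6 libraries) received an Egr2-targeting small interfering RNA and the siNC group (6 libraries) a scrambled one, and both were harvested 48 h later. The methods speak of an interference plasmid in one place and of an siRNA in another. Neither source says whether the 6 libraries of a group came from separate cultures or animals, so the p-values measure the spread between these libraries.

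ErbB ligands are made as membrane-bound precursors that proteases release. A bound ligand joins receptors into pairs that signal through Ras and ERK and through PI3K and AKT. Erbb2 binds no known ligand and serves as a partner, whereas Erbb3 has little kinase activity of its own. Egfr binds Tgfa, Areg, Hbegf, Ereg and Btc, and Erbb3 and Erbb4 bind neuregulins such as Nrg1. Hbegf, Ereg and Btc also bind Erbb4. In the brain, Egfr marks proliferating glial progenitors and reactive astrocytes, and neuregulin signaling has been studied for its role in OL development and in myelination by Schwann cells.

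The data were counts of reads per gene, given here as CPM, the count of a gene per 1000000 counts of its library after scaling by TMM. Library totals ranged from 28682946 to 39383014 counts among siNC libraries and from 8034251 to 16683677 among siEgr2 libraries. The share of counts on one 18S ribosomal RNA gene, Rn18s-rs5, was 0.142% to 1.05% in the siNC libraries and 10.5% to 16.5% in the siEgr2 libraries (p = 0.00216, two-sided, by exact permutation, which is the lowest p possible for 6 against 6 libraries). Depth and this share thus moved with the treatment. The 3 ErbB genes called below were also called with every library thinned to the smallest total and with structural RNA genes left out. Neither setting can separate the siRNA from other differences between libraries that go with the treatment, so these cannot be told apart here. Egr2 itself had a mean of 5.35 CPM ± 1.27 (SD, n = 6) in siNC and 3.77 ± 1.01 (SD, n = 6) in siEgr2, and the groups overlapped. The difference gave p = 0.0433 in the exact permutation test on log2 of CPM plus 0.5, and a log2 fold change of -0.51 ± 0.21 (SE) in the edgeR fit (adjusted p = 0.0981), so at the mRNA level the knockdown was modest and missed the threshold across all genes.

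A gene was called when edgeR's quasi-likelihood F-test over 16600 genes gave it a log2 fold change beyond 0.5 in either direction at an adjusted p under 0.05. By this rule 1281 genes were called, 7.72% of those tested. Of these, 844 were lower in siEgr2 (5.08%) and 437 were higher (2.63%). Of the 7 ErbB genes tested, 3 were called lower (Egfr, Erbb2 and Hbegf) and 0 were called higher. No member was higher at an unadjusted p under 0.05 either, and DESeq2 and limma-voom also gave 0. The median log2 fold change of the 7 genes was -0.02, beside 0.00 (0.0046) for all genes tested. The genes therefore did not move together: 3 fell, and 4 did not pass the test.

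**Figure D1:**
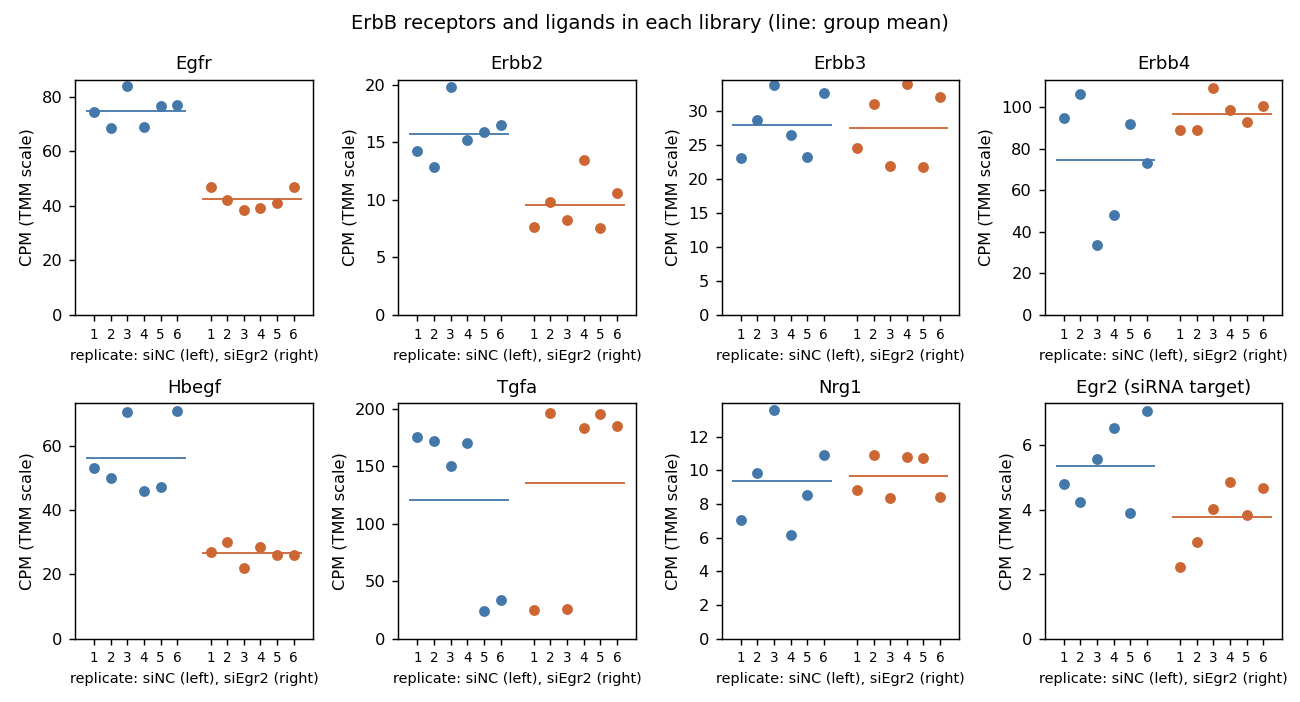
CPM on the TMM scale (vertical axes, from 0) of the 4 receptors, the 3 ligands that passed the filter and Egr2 in each of the 12 libraries, with siNC replicates in blue on the left, siEgr2 replicates in orange on the right and a line at each group mean. The siEgr2 points of Egfr and Hbegf lie below every siNC point, and Tgfa sits at 2 separate levels in both groups.

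Egfr, the receptor for most ligands of the family, fell. In the siNC libraries it ranged from 68.6 to 83.9 CPM (median 75.6), and in the siEgr2 libraries from 38.5 to 46.7 (median 41.6). The groups did not overlap, and the same separation, with siEgr2 below, was seen for 7.00% of all genes tested. The log2 fold change was -0.82 ± 0.07 (SE; 95% interval -0.96 to -0.68), a 1.77-fold lower level (edgeR, adjusted p = 3.7e-07). The spread between libraries of a group, 0.11 as a SD on the log2 scale, was below the median of 0.15 over genes with a mean log2 of at least 2. Egfr lies on chromosome 11 at 16752203-16918158 on the plus strand (GRCm38). An antisense gene inside this span, Egfros, had at most 4 counts in any library.

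Erbb2, the partner receptor, also fell, with less separation. It ranged from 12.9 to 19.8 CPM in siNC (median 15.5) and from 7.56 to 13.5 in siEgr2 (median 8.99). The groups overlapped: siEgr2 replicate 4, at 13.5, was above siNC replicate 2, at 12.9. Erbb2 had a log2 fold change of -0.72 ± 0.15 (SE; 95% interval -1.03 to -0.41), 1.65-fold lower, and its adjusted p was 0.0020. When the test asked for a change beyond 0.5 on the log2 scale rather than beyond 0, Erbb2 had an adjusted p of 0.506 and was no longer called. Erbb2 lies on chromosome 11 at 98412470-98437716 on the plus strand. Its end overlaps Mien1 on the other strand, which had 31.0 to 36.2 CPM in siNC and 29.8 to 36.8 in siEgr2. Whether the counting used strand is not given in the sources used here, so reads of the overlap cannot be told apart.

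Erbb3, which pairs with Erbb2 as a neuregulin receptor, was not called. It ranged from 23.1 to 33.8 CPM in siNC and from 21.8 to 33.9 in siEgr2, so the ranges nearly coincided. Its log2 fold change was -0.02, with a 95% interval of -0.31 to 0.26 (adjusted p = 0.926), which leaves room for a change of that size in either direction. Erbb3 lies on chromosome 10 at 128567523-128589652 on the minus strand.

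Erbb4, the other neuregulin receptor, was the most variable receptor. It ranged from 33.4 to 106 CPM in siNC (median 82.6) and from 88.7 to 109 in siEgr2 (median 95.7). The wide siNC range came from siNC replicate 3 at 33.4 and siNC replicate 4 at 47.8, whereas the other 4 siNC libraries lay between 73.3 and 106. These values rest on at least 724 counts per library. Erbb4 had a log2 fold change of 0.37 ± 0.25 (SE; 95% interval -0.19 to 0.93, adjusted p = 0.351). With each library left out in turn it lay between 0.22 (without siNC replicate 3) and 0.50, never called. Erbb4 lies on chromosome 1 at 68032186-69108059 on the minus strand, a span that holds several small genes.

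Within a library the 2 receptors Egfr and Erbb3 can be compared without scaling between libraries. Per kilobase of the longest annotated transcript, the ratio of Egfr to Erbb3 was 1.39 to 1.95 in siNC and 0.680 to 1.13 in siEgr2. The ranges did not overlap, so the fall of Egfr relative to Erbb3 did not depend on the scaling factor.

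The promoters of Egfr and Erbb2, the 2 receptors that fell, are shown because these receptors share the direction of change and Egr2 is a DNA-binding factor. The windows run from 250 bases before to 50 bases after the start of the gene in RefSeq (GRCm38.p6) and are written 5′ to 3′ on the strand of the gene. They cover chr11:16751953-16752252 and chr11:98412234-98412533, both on the plus strand. Capitals mark a match to the GC box core GGGCGG on either strand.
Egfr: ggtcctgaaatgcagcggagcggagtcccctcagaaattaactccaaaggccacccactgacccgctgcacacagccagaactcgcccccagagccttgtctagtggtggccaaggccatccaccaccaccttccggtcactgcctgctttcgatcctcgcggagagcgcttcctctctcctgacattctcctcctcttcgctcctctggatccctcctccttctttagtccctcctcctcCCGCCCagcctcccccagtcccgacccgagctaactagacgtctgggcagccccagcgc
Erbb2: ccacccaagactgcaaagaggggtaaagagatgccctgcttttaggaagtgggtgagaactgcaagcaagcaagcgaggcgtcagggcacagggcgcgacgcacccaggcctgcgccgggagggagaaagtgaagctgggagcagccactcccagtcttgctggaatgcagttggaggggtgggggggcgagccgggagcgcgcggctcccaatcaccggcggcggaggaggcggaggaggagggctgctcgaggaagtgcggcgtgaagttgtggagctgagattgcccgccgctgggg

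Both windows are rich in G and C (62.3% for Egfr and 66.0% for Erbb2, beside a median of 52.7% over 32851 windows). The consensus of the EGR family, GCGTGGGCG, was searched on both strands and was in 0 of the 6 windows available for the ErbB genes (Egfr, Erbb2, Erbb4, Tgfa, Areg and Btc), and in 0.612% of all windows. The GC box core was in 3 of the 6 (Egfr, Tgfa and Areg), and in 35.7% of all windows. The Areg window also held a TATA box (TATAAA, in 13.6% of all windows) and a cyclic AMP response element (TGACGTCA, in 1.79%). None of these 4 motifs contains another. A missing match says only that these letters are not in this window.

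Of the 3 ligands that passed the filter, Hbegf was the one that fell. Hbegf encodes heparin-binding EGF-like growth factor, which binds Egfr and Erbb4. It ranged from 46.0 to 70.9 CPM in siNC (median 51.7) and from 22.1 to 30.3 in siEgr2 (median 26.6). No siEgr2 library reached the lowest siNC library, which held for 7.00% of all genes tested. The log2 fold change was -1.08 ± 0.12 (SE; 95% interval -1.34 to -0.82), 2.11-fold lower (adjusted p = 1.7e-05). Hbegf lies on chromosome 18 at 36504927-36515805 on the minus strand.

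Tgfa, transforming growth factor alpha, a ligand of Egfr, had the highest mean of the 10 genes and the widest spread. In siNC replicates 1 to 4 it had 175, 172, 150 and 170 CPM, and in siNC replicates 5 and 6 it had 24.1 and 33.6 CPM. In siEgr2 it had 24.9 CPM in replicate 1, 196 in replicate 2, 25.6 in replicate 3, and 183, 196 and 185 in replicates 4, 5 and 6. Thus 8 libraries lay between 150 and 196 CPM and 4 between 24.1 and 33.6, 2 in each group, with a 4.47-fold gap and no value between. The lowest of these libraries still had 370 counts on Tgfa. How reads were assigned to genes is not given in the sources used here, so whether these levels, and the low Erbb4 values in siNC replicates 3 and 4, are levels of mRNA or of assigned reads cannot be told from the counts. Its spread of 1.41 (SD, log2) between libraries of a group ranked 23rd highest of 12514 genes.

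With this spread the comparison of Tgfa between groups had little precision. Its log2 fold change was 0.15, with a 95% interval of -1.39 to 1.70 (adjusted p = 0.908), and lay between -0.06 and 0.37 when each library was left out in turn. Tgfa lies on chromosome 6 at 86195223-86275719 on the plus strand, and its antisense neighbor Gm43917 had at most 4 counts.

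Nrg1, the neuregulin that binds Erbb3 and Erbb4, was low and was not called. It ranged from 6.18 to 13.6 CPM in siNC and from 8.34 to 10.9 in siEgr2, entirely inside the siNC range. Nrg1 had a log2 fold change of 0.04, with a 95% interval of -0.32 to 0.41 (adjusted p = 0.897). Nrg1 is a long gene on chromosome 8, at 31814551-32884029 on the minus strand, and its many isoforms were counted as 1 gene.

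Ereg, Areg and Btc, neighbors on chromosome 5, were near the limit of detection. Ereg, epiregulin, had 10 to 20 counts in each of the 6 siNC libraries (77 in all) and 0 counts in all 6 siEgr2 libraries. With the 3 counts that a count of 0 allows set in place of the siEgr2 sum, Ereg was 9.38-fold lower in CPM. This figure takes the 77 siNC counts as exact, so it is not a lower bound on a fall. It covers counting error in siEgr2 only, and reads without molecular identifiers are not independent molecules. It also rests on a gene at 0.376 CPM in siNC.

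Areg, amphiregulin, had 4 to 16 counts in the siNC libraries (42 in all) and 6 in the siEgr2 libraries, 3 each in replicates 4 and 5. The pooled level was 2.56-fold lower in siEgr2, with an exact 95% counting interval of 1.08 to 7.36. Btc, betacellulin, had 6 to 29 counts in siNC (102 in all) and 14 in siEgr2, of which 12 came from replicate 2. Its pooled level was 2.66-fold lower, with an exact 95% counting interval of 1.52 to 5.04. These intervals leave out the spread between libraries. In the edgeR fit without the filter on low counts, which includes that spread, neither was called (adjusted p = 0.481 for Areg and 0.301 for Btc). Areg lies at 91139599-91148432 and Ereg at 91074622-91093646, both on the plus strand, and Btc at 91357261-91402994 on the minus strand.

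The levels of the 10 genes were put in order per kilobase of the longest coding transcript in GENCODE M21. In siNC the order of the means was Tgfa (26.7 CPM per kb), Hbegf (23.8), Egfr (7.34), Erbb4 (6.19), Erbb3 (4.65), Erbb2 (3.14), Nrg1 (1.73), Btc (0.177), Areg (0.172) and Ereg (0.0917). Ranges of neighbors overlapped for Tgfa and Hbegf, for Egfr and Erbb4, for Erbb4 and Erbb3, for Erbb3 and Erbb2, and among Btc, Areg and Ereg. They did not overlap between Hbegf and Egfr, between Erbb2 and Nrg1, or between Nrg1 and Btc.

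In siEgr2 the first 2 ligands remained Tgfa (29.8 CPM per kb) and Hbegf (11.3), and Egfr (4.15) came after Erbb4 (8.02) and Erbb3 (4.57). The order depends on the transcript length used. With the median in place of the longest coding transcript (2.94 kb in place of 10.2 kb), Egfr had 25.4 CPM per kb in siNC and 14.4 in siEgr2 and ranked second in both groups, above Hbegf, Erbb4 and Erbb3.

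**Figure D2:**
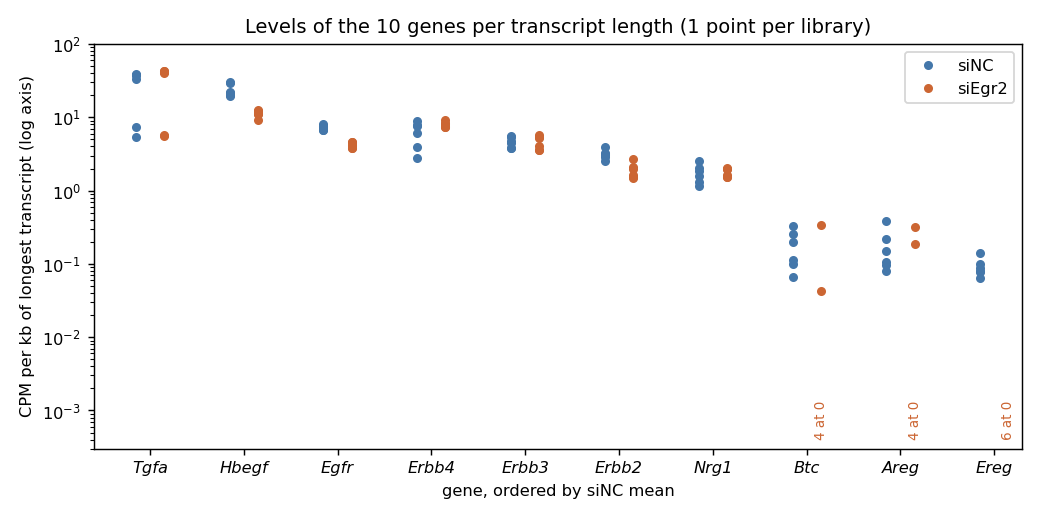
CPM per kilobase of the longest coding transcript (vertical log axis) of the 10 genes, ordered by their siNC mean, with 1 point per library for siNC (blue) and siEgr2 (orange). Libraries at 0 cannot be drawn on a log axis and are given as numbers. Tgfa and Hbegf have the highest means, but in the 4 libraries where Tgfa is low it lies below Hbegf. Btc, Areg and Ereg reach at most 0.383 in any library.

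Markers of other cells moved in the same comparison. In bulk RNA, fewer cells of a type and less RNA per cell cannot be told apart. All 10 astrocyte markers were measured, 5 were called lower (Gfap, Aqp4, Aldh1l1, Slc1a2 and Slc1a3) and 0 higher, with a median log2 fold change of -0.58. Their summed level was 8174 to 8877 CPM in siNC and 5202 to 5909 in siEgr2. For Gfap the paper reports the other direction, a rise by qPCR in primary OLs after Egr2 interference. Egfr and Hbegf are also expressed by astrocytes, and the part of astrocytes in their fall was not tested.

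Per 1000 CPM of summed astrocyte markers, Egfr had 7.97 to 9.997 CPM in siNC and 6.91 to 8.24 in siEgr2, and these ranges overlapped. The same ratio for Erbb2 was 1.57 to 2.36 in siNC and 1.34 to 2.37 in siEgr2, also overlapping. The ratio for Hbegf was 5.33 to 8.43 in siNC and 4.24 to 5.23 in siEgr2, without overlap. Hbegf thus did not overlap between the groups on either scale, Egfr did not overlap in CPM but did in this ratio, and Erbb2 overlapped on both scales. The largest part of the summed markers was Gfap, with a mean of 4777 CPM in siNC and 3242 in siEgr2. Its log2 fold change was -0.56, and those of the 10 markers ran from -0.85 to -0.11. The ratio therefore depends on the markers summed, and its overlap was not computed for all genes.

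The labelled cell type was present. The lineage markers Olig1, Olig2 and Sox10 summed to 2383 to 2574 CPM in siNC and 2819 to 3013 in siEgr2. The 10 markers of myelinating OLs summed to 7847 to 8912 CPM in siNC and 7327 to 7644 in siEgr2. Of these 10 markers 0 were called, all 10 had a negative log2 fold change (median -0.18), and 4 had an adjusted p under 0.05, so their estimates had the same sign as those of Egfr, Erbb2 and Hbegf. Of 5 markers of OL precursors, 2 were called higher (Pdgfra and Cspg4), and their sum was 2079 to 2460 CPM in siNC and 2826 to 3014 in siEgr2. The 6 markers of newly formed OLs summed to 2974 to 3309 and 2942 to 3990 CPM, with 0 called.

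Markers of other cells had lower sums. The 8 microglial markers summed to 3.34 to 6.47 CPM in siNC and 2.20 to 5.74 in siEgr2, with Aif1 and Itgam at 0 in every library. The 5 endothelial markers summed to 25.9 to 35.0 and 27.5 to 38.0 CPM, with Cldn5 at 0 in every library and 1 of 3 tested called lower (Flt1). The 7 markers of fibroblasts and pericytes summed to 590 to 1007 and 597 to 741 CPM, with 2 of 6 tested called lower (Pdgfrb and Rgs5). The 8 neuronal markers summed to 137 to 156 and 118 to 130 CPM, with 1 of 7 tested called lower (Stmn2). Single genes made up most of 2 of these sums. Kdr had a mean of 25.6 CPM in siNC and 28.2 in siEgr2 among endothelial markers. Tubb3 had 114 and 94.5 among neuronal markers.

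**Figure D3:**
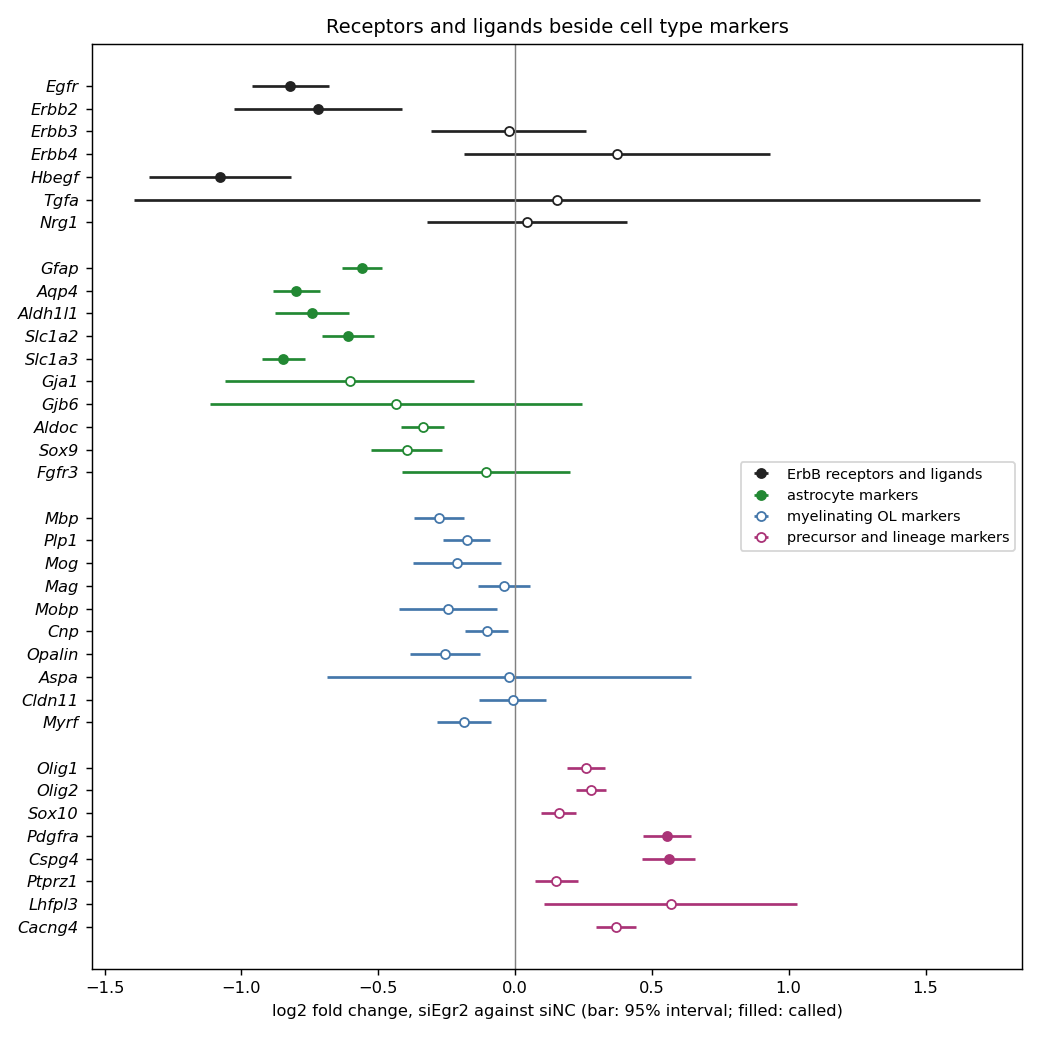
Log2 fold change of siEgr2 against siNC (horizontal axis) with 95% intervals for the 7 tested receptors and ligands (black), the 10 astrocyte markers (green), the 10 markers of myelinating OLs (blue) and the markers of OL lineage and precursors (purple), where filled points are called genes. Egfr, Erbb2 and Hbegf lie on the same side of 0 as all 10 astrocyte markers and all 10 markers of myelinating OLs, and Erbb4 has a positive estimate with an interval that includes 0.

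The other genes of the pathway were described by lists of 85 genes, of which 83 were tested. Of these, 4 were called lower and 0 higher, beside the 5.08% and 2.63% of all genes given above. At an unadjusted p under 0.05, 12 of the 83 were higher and 20 lower, beside 15.1% and 16.9% of all genes. DESeq2 and limma-voom also called 0 higher. An adjusted p under 0.05 without the fold threshold was reached by 17 of the 83, 6 higher and 11 lower, beside 19.9% of all genes. The median log2 fold change over the 83 genes was 0.01.

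In the group that releases ligands (proteases, rhomboid proteins and their partners), 1 of 10 was called. Rhbdf2, which encodes iRhom2, a partner that helps the protease Adam17 to mature and reach the cell surface, fell by 1.48 on the log2 scale (SE 0.22, adjusted p = 0.00012). It had 3.07 to 5.67 CPM in siNC and 1.08 to 2.02 in siEgr2, without overlap. Rhbdf1, another rhomboid gene of this list, had 43.2 to 48.1 CPM in siNC and 40.4 to 49.9 in siEgr2. Its log2 fold change was -0.05 (adjusted p = 0.586 in edgeR's test). Adam17 itself had a log2 fold change of 0.03 (95% interval -0.36 to 0.42). Adam9 and Adam19, members of the same protease family, had log2 fold changes of 0.23 and 0.19 and did not pass (adjusted p = 0.0996 and 0.0924 in edgeR's test).

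Of the 10 receptor-proximal adaptors and enzymes, 0 were called. Shc1, an adaptor that links active receptors to Ras, had a log2 fold change of -0.43 ± 0.07 (SE), past the adjusted p (0.00048) but not the fold threshold. Grb2, its partner adaptor, had -0.23 (adjusted p = 0.274). Of the 10 genes of the Ras and ERK cascade 0 were called. Mapk3, which encodes ERK1, had a log2 fold change of -0.22, past the adjusted p (0.0053) but not the fold threshold. Of the 12 genes of the PI3K and AKT branch 0 were called. There the catalytic subunit Pik3cb had a log2 fold change of 0.34 (adjusted p = 0.0057) and Pik3cd had -0.30 (adjusted p = 0.362).

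Of 22 negative regulators of the receptors or of ERK, 2 were called lower. Lrig1, a transmembrane protein that promotes degradation of ErbB receptors, fell and had 295 to 352 CPM in siNC and 197 to 235 in siEgr2 (log2 fold change -0.59 ± 0.05 SE, adjusted p = 7.6e-07). Dusp5, a phosphatase of nuclear ERK, fell too, with 7.38 to 9.03 CPM in siNC and 3.09 to 6.63 in siEgr2 (log2 fold change -0.79 ± 0.16 SE, adjusted p = 0.0019). Neither gene overlapped between the groups, a separation with siEgr2 below that 7.00% of all genes tested had.

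Of 16 genes known to be induced through ERK, 1 was called lower. Ier3, an immediate early gene, fell and had 24.6 to 31.2 CPM in siNC and 12.8 to 18.2 in siEgr2 (log2 fold change -0.77 ± 0.09 SE, adjusted p = 2.5e-05). Junb, a subunit of the AP-1 transcription factor, had a log2 fold change of -0.38, past the adjusted p (0.0012) but not the fold threshold. In the same list 3 genes had an adjusted p under 0.05 with a positive estimate and 2 with a negative one, so the ERK-induced genes had no single direction. Of the 5 other ligands, 3 were tested and 0 were called: Nrg2, a neuregulin with 6.15 to 8.02 CPM in siNC and 4.96 to 8.58 in siEgr2, had a log2 fold change of 0.00 (-0.00065).

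**Figure D4:**
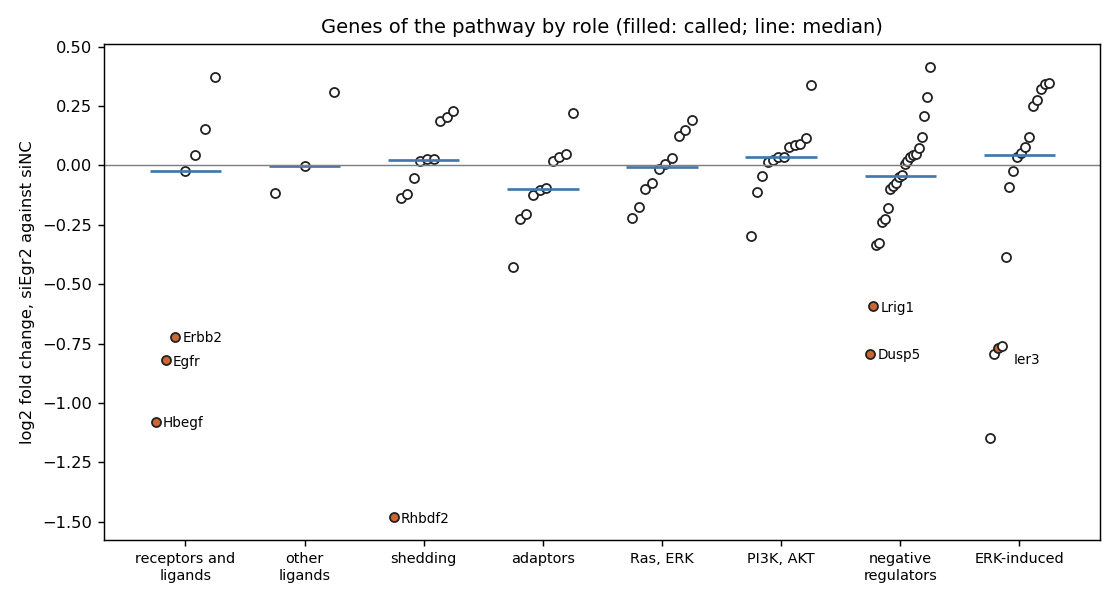
Log2 fold change of siEgr2 against siNC (vertical axis) for each tested gene, grouped by role in the pathway, with called genes filled and named and the median of each group as a blue line. The 7 called genes all lie below 0, and the group medians lie between -0.10 and 0.04.

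The genes whose levels followed a receptor or ligand most closely from library to library were found by Pearson's r of log2 CPM after the group means were subtracted, over 12 libraries and 12507 genes. These are descriptions: the highest of so many values is large by selection, and the libraries share their depth and composition. The 3 highest were Fam124a (0.94), Chac1 (0.92) and Tmem143 (0.91) for Egfr. For Erbb2 they were Eps15l1 (0.93), Nav2 (0.91) and Dglucy (0.91). For Erbb3 they were Pcdhga4 (0.93), Pdgfb (0.92) and Slc35e4 (0.92), of which Pcdhga4 shares exons with other protocadherin genes and is uncertain. For Tgfa they were Tcf4 (0.91), Zfp672 (0.83) and Phtf1 (0.82), so Tcf4 was the gene that followed its 2 levels most closely.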

How the data were processed

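RNA-seq of 12 libraries of differentiated primary mouse OLs (6 siNC, 6 siEgr2, 48 h) was analyzed. The authors extracted total RNA with TRIzol, sequenced it with 50 bp reads and deposited raw counts per gene symbol. The submitters' processing notes name the build mm10. The aligner, counting program, annotation, strand setting and RNA selection are not given in the sources used here, so reads of overlapping genes could be assigned either way. The blank entry of the table (1) was left out.

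The test was run in edgeR 4.0.16 under R 4.3.3 (filterByExpr, TMM factors, robust quasi-likelihood test, no covariate, Benjamini-Hochberg adjustment over all genes tested). A call needed a log2 fold change beyond 0.5 in either direction and an adjusted p under 0.05, the thresholds of the study, whose test is not named. CPM used TMM-scaled totals. The SE is the fold change divided by the root of the F statistic. Single values used the exact permutation test over 924 assignments. Lengths and positions came from GENCODE M21 (GRCm38, the assembly of mm10) and promoters from RefSeq. The procedure was tested on simulated counts. Within groups, no pair of libraries was a copy of another: the chi-square per gene over 30 pairs was 7.57 to 42.2, where sampling noise gives about 1.

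Totals of 8034251 to 39383014 counts set the precision for low genes. The members and lists were chosen with earlier results of these data known. Named in the text were all members, Egr2, in each pathway list the called genes (at most 5) or, with fewer than 2 called, also the 2 tested genes of largest change whose mean log2 CPM was 2 or more, and for 4 members the 3 genes most alike. A result that this rule names in the Ras and ERK list is not reported here. Marker genes, Adam17, Rhbdf1, overlapping genes and the promoter windows were named after values were seen, since the planned windows around EGR matches held none. Alternatives were RLE, upper-quartile and library-size scaling, DESeq2 1.42.0, limma-voom (limma 3.58.1), other filters and thresholds, glmTreat, a replicate block, each library left out, thinning to the smallest total, structural RNA genes left out, and the median transcript length.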

Additional observations from a re-analysis of the deposited data

Results flagged for a closer look

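Among 24 groups of 6 values examined (the 10 genes, Egr2 and the library totals in each treatment), 2 held a value far from the other 5 by Dixon's criterion for an outlying value at the 95% level, beside 1.2 groups that chance gives. No value could stand apart for Ereg in siEgr2, which was 0 in every library. The figure of 1.2 assumes normally distributed values, and Areg and Btc in siEgr2 were mostly 0. Btc in siEgr2 replicate 2 stood at 0.977 CPM (12 counts), and the next highest library of its group at 0.124 CPM. The total of siNC replicate 6, at 39383014 counts, was above the next highest siNC total of 32460116.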

How the results depend on the processing

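Egfr, Erbb2 and Hbegf kept a negative log2 fold change under all 25 alternatives run for each (Egfr -1.005 to -0.78, Erbb2 -0.91 to -0.64, Hbegf -1.26 to -1.001). Hbegf was called under all of them, Egfr under 24 and Erbb2 under 23. Scaling by library size only, which shifted the median of all genes to -0.18, called 11 pathway genes lower and 1974 genes in all (237 higher and 1737 lower, beside 437 and 844), and also called Egr2 lower (-0.70, adjusted p = 0.014). Without the fold threshold, 6 pathway genes were called higher, 11 lower and 3300 genes in all. With a threshold of 1, 1 ErbB gene (Hbegf), 1 pathway gene (Rhbdf2) and 373 genes in all were called. With glmTreat at 0.5, 1 pathway gene (Rhbdf2) and 237 genes in all were called, with Erbb2 lost. Without the filter on low counts 4 ErbB genes were called lower, the addition being Ereg, which enters that fit through its siNC counts alone and is no support for a fall.

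With each library left out in turn, 3 ErbB genes were called lower and 0 higher each time, 4 to 5 pathway genes were called lower and 0 higher, and 1114 to 1339 genes were called in all. Libraries with the same replicate number did not deviate together (correlations from -0.092 to 0.11 over 9079 genes), so the numbers were not read as pairs. With the replicate number as a block, 3 ErbB genes and 5 pathway genes were called lower and 1124 genes in all. Depth limits Areg, Ereg and Btc, which had at most 29 counts in a library.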

Other observations

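Large steps between libraries of one treatment were seen in other genes of the pathway besides Tgfa and Erbb4, and in other libraries. Among the 62 pathway genes whose mean log2 CPM was 5 or more, 5 (8.06%) had more than a 2-fold range within a group, beside 4.99% of 6509 genes in all. Nras, one of the Ras genes, had 68.9 to 270 CPM in siNC and 65.1 to 260 in siEgr2, and was below 50% of its maximum in siNC replicates 3 and 4 and in siEgr2 replicates 3 and 5. Cbl, a ubiquitin ligase that acts on active Egfr, had 71.8 to 203 CPM in siNC, with siNC replicates 1, 2 and 6 below 50% of the maximum, and 167 to 188 in siEgr2. Spry1, an inhibitor of Ras signaling, had 7.57 CPM in siEgr2 replicate 2 and up to 86.0 in the other siEgr2 libraries, and 51.7 to 63.8 in siNC. Adam10, a protease that releases several ErbB ligands, was below 50% of its maximum in siNC replicate 5 alone, at 93.0 CPM, and Grb2 in siEgr2 replicate 5 alone, at 46.9 CPM. Nras and Erbb4 were both low in siNC replicates 3 and 4, and otherwise the sets of low libraries differed from gene to gene. Each of these values rests on at least 93 counts. As for Tgfa and Erbb4, the assignment of reads to these genes is not given in the sources used here, and its part in the steps was not tested.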
